A study of Rattus norvegicus with 15 samples.

Results

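Neutrophil granule proteins are described here through 6 genes, Elane, Prtn3, Camp, Ngp, Ltf and Lyz2, chosen by symbol from the 22250 genes measured in rat lung. All 6 symbols were found, once each. Neutrophils carry their antimicrobial proteins ready-made in granules. Primary (azurophil) granules, filled first during maturation in the bone marrow, hold the serine proteases elastase and proteinase 3. Secondary (specific) granules, filled later, hold cathelicidin, lactoferrin and the neutrophilic granule protein. The messages of granule proteins are made mainly in marrow precursors, and mature neutrophils in blood and tissue are known to keep few of those for primary granules. Lysozyme is found in several granule types, and also in macrophages and in alveolar type 2 cells, the surfactant-making cells of the lung.

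RNA was sequenced from 15 lung libraries of wild-type rats, 5 in each of 3 groups. Control rats were normal. COPD rats had received lipopolysaccharide (LPS, a bacterial cell wall component) and smoke by the trachea, which is used to model chronic obstructive pulmonary disease. WDD rats had the same exposure and were given Wendan Decoction, a Chinese herbal formula, by the stomach. The sources used here give no strain, age, sex, dose or time. They also do not state that each library came from its own rat, and p-values therefore cover the spread among libraries, which may be technical.

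Values are FPKM, fragment counts divided by gene length and by the mapped fragments of the library, as deposited. From the steps between low values, depth lay between 0.879 and 1.11 times that of control 2. Markers of alveolar type 2 cells, such as Sftpc, were abundant in all groups, as the lung label says. The groups differed in makeup as whole libraries. Of each library's FPKM sum, 13 genes of the mitochondrial genome took 8.11% ± 1.94 in control, 44.9% ± 12.4 in COPD and 21.7% ± 2.90 in WDD lungs (mean ± SD, n = 5), with exact permutation p = 0.00794 for each pair, the smallest value that 5 against 5 allows (two-sided). The median of 20 long housekeeping transcripts was 1.59 lower on the log2(FPKM + 1) scale in COPD than in control lungs, where that of 73 ribosomal protein genes differed by -0.06. Among all 13172 genes tested, the median log2 fold change was -0.81 for COPD against control, 0.54 for WDD against COPD and -0.23 for WDD against control. The part of these shifts in the results below was not tested. COPD 5 stood apart from the other COPD libraries in Camp and Ngp, and results that rest on it are given with and without it. It also stood apart over the genes with a mean FPKM of at least 5. Its root-mean-square log2 difference from the other COPD libraries was 0.994 to 1.08, against 0.387 to 0.758 among those. The closest pair within a group was WDD 4 and WDD 5, with a root-mean-square log2 difference of 0.191 against 0.299 for the next pair, and they were kept as separate libraries.

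The members differed widely in level. Lyz2 was the most abundant gene of all in 4 of 5 control libraries, at 14993 ± 2482 FPKM. Camp and Ngp stood at 1.96 ± 1.25 and 2.19 ± 3.26 FPKM in control lungs, Prtn3 and Elane at 0.441 ± 0.293 and 0.165 ± 0.194 FPKM, and Ltf at 0.0229 ± 0.0370 FPKM. Apart from Lyz2, these control levels overlapped between neighbours in the order. In COPD lungs the order was another one, with Lyz2 at 4043 ± 2141, Camp at 80.4 ± 112, Ngp at 69.9 ± 156 and Elane at 3.25 ± 1.18 FPKM, Prtn3 at 0.0185 ± 0.0413 FPKM and Ltf at 0. The means of Camp and Ngp there are carried by COPD 5, and the range of Ngp there overlapped those of both Camp and Elane, while every Camp value lay above every Elane value.

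**Figure D1:**
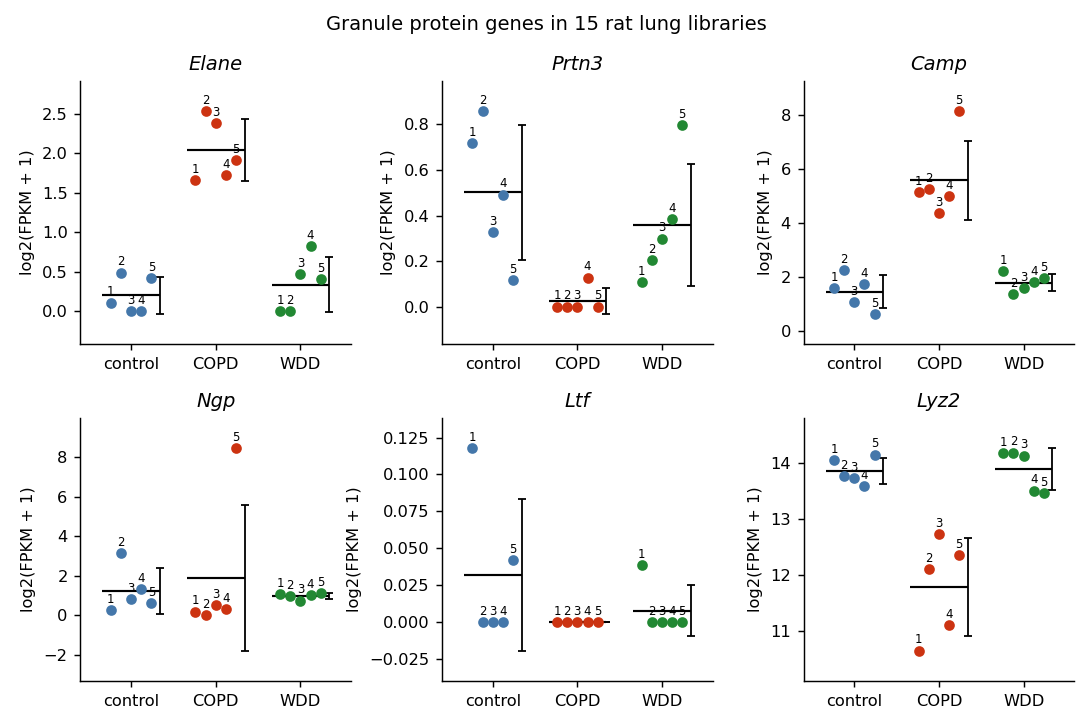
Level of each member as log2(FPKM + 1) in the 15 libraries, with the library's number beside each point, the group mean as a line and its SD as a bar (n = 5). Camp and Elane lie higher in all 5 COPD libraries, Ngp is high in COPD 5 alone, Lyz2 is lower in all 5 COPD libraries, and Ltf and Prtn3 stay below 1 FPKM throughout. The vertical scale differs between panels.

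A gene was tested where its FPKM was at least 1 in at least 5 libraries, with limma on log2(FPKM + 1) and Benjamini-Hochberg adjustment over all 13172 genes. Camp, Ngp, Elane and Lyz2 passed this filter, and Prtn3 and Ltf did not. Elane reached 1 FPKM in the COPD libraries only, so a test of it had to find a difference from the other groups. In COPD against control lungs, Camp and Elane were called higher, Lyz2 lower, and Ngp was not called. Over all genes, 74.7% were called, 8.23% higher and 66.4% lower. In WDD against COPD lungs, Lyz2 was called higher, and Camp and Elane lower, where 63.8% of all genes were called, 57.1% higher and 6.63% lower. In WDD against control lungs none of the 4 was called by limma, and none had an unadjusted p under 0.05, where 37.3% of all genes were called, 6.35% higher and 31.0% lower. The balance of calls depends on scaling. In COPD against control 1084 genes were higher and 8749 lower as deposited, and with median-of-ratios scaling 3977 were higher and 4256 lower, which moved the median of all genes from -0.81 to -0.05. Camp and Elane were called higher and Lyz2 lower there under each of 3 other scalings. The COPD libraries enter the first 2 comparisons alike, so opposite signs there are not independent of each other. In bulk tissue, fewer cells of a type and less RNA per cell cannot be told apart.

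**Figure D2:**
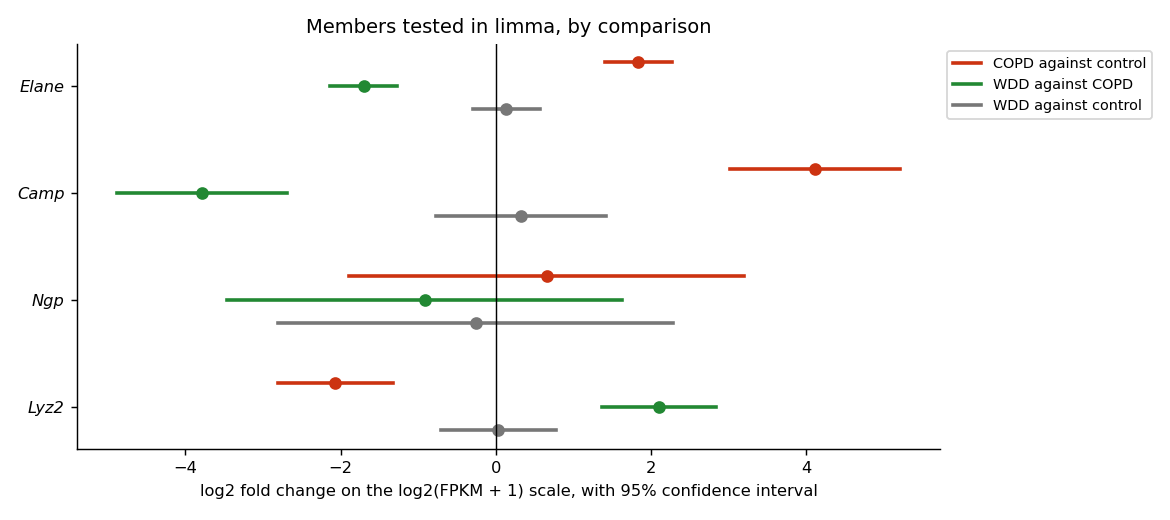
Log2 fold changes of the 4 tested members on the log2(FPKM + 1) scale, with 95% confidence intervals from limma. Camp and Elane rise and Lyz2 falls in COPD against control, the reverse holds in WDD against COPD, and the intervals of Ngp span 0 in every comparison.

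Camp (ENSRNOG00000020733) encodes the cathelicidin precursor, whose C-terminal peptide kills bacteria and attracts leukocytes. Its FPKM was 2.0, 3.81, 1.11, 2.33 and 0.550 in control 1 to 5. It was 34.2, 36.8, 19.7, 31.2 and 279.98 in COPD 1 to 5. It was 3.63, 1.60, 2.0, 2.50 and 2.88 in WDD 1 to 5. Every COPD library lay above every library of the other groups, and COPD 5 lay far above the rest. Camp rose by 4.12 ± 0.52 (log2 fold change ± SE, adjusted p = 2.42e-06, limma), which is 17.4-fold on the FPKM + 1 scale. Without COPD 5 the rise was 3.48 (adjusted p = 2.08e-08, limma). In WDD against COPD lungs it fell by 3.79 ± 0.52 (adjusted p = 1.71e-05, limma), and by 3.15 without COPD 5. WDD and control lungs differed by 0.33, with a 95% interval from -0.77 to 1.42.

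Ngp (ENSRNOG00000024330) encodes the neutrophilic granule protein, a relative of cathelicidins. Its FPKM was 0.214, 7.95, 0.749, 1.51 and 0.521 in control 1 to 5. In COPD 1 to 4 it was 0.147, 0, 0.427 and 0.245, and in COPD 5 it was 349. In WDD 1 to 5 it was 1.09, 0.945, 0.678, 1.01 and 1.16. A single COPD library was thus high, and the other 4 lay below all 5 WDD libraries. The log2 fold change for COPD against control was 0.66 ± 1.2 (adjusted p = 0.632, limma). Without COPD 5 its sign turned, and Ngp was called lower, at -0.98 (adjusted p = 0.0366, limma), which lies close to the median of all genes. Against WDD lungs the difference, WDD minus COPD, was -0.92 ± 1.2, and 0.72 without COPD 5, and neither was called (adjusted p = 0.516 and 0.125, limma).

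Camp, Ngp and Lyz2 showed 3 different patterns, a rise in every COPD library, a high level in 1 library and a fall. The 250 bases before their transcription start, from the RefSeq promoter table of build GRCr8, are given so that the regulatory sequences can be compared. They lie at chr8:118721999-118722248 (minus strand) for Camp, chr8:119272355-119272604 (plus strand) for Ngp and chr7:54798012-54798261 (minus strand) for Lyz2, each written 5′ to 3′ along the gene. Capitals mark matches on either strand to TTGCNNAA, a pattern of C/EBP factors, and to GAGGAA, a pattern of PU.1. Both factors are known regulators of granulocyte genes.
Camp: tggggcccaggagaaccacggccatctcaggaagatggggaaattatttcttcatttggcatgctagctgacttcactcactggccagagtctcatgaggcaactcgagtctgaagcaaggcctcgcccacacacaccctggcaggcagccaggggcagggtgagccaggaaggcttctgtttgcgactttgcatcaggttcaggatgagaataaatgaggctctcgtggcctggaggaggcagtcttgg
Ngp: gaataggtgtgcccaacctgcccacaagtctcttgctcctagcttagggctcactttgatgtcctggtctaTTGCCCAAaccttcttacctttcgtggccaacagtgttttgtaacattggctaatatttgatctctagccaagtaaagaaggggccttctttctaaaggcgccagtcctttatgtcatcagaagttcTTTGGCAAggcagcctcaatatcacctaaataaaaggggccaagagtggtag
Lyz2: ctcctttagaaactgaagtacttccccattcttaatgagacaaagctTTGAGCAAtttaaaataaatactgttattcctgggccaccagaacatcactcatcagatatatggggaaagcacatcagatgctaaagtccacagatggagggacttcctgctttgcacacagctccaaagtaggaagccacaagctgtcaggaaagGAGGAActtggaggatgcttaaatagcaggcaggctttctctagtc
Ngp held 2 matches to TTGCNNAA, Lyz2 held 1 match to each pattern, and Camp held none of either in this window. The 2 patterns do not overlap in these windows. Among 33469 promoters in the table, 9.22% held TTGCNNAA and 23.3% held GAGGAA. Promoters of 5 of the 6 members were in the table. Of the others, Prtn3 held 1 match to GAGGAA and Ltf none.

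Genes with profiles most like those of Camp and Ngp, by the root-mean-square difference of centred log2(FPKM + 1) over the 15 libraries, also separated the pair. For Camp they were Selp (P-selectin), Csf3 (granulocyte colony-stimulating factor) and Olfm4 (olfactomedin 4, held in specific granules), at differences of 0.46, 0.49 and 0.54. Their COPD means were 57.8, 37.3 and 34.8 FPKM, with COPD 5 highest at 174, 136 and 125 FPKM. For Ngp they were Rsad2 (viperin), Batf2 and Cmpk2, genes known to be induced by interferon, at differences of 0.76, 0.78 and 0.91. In COPD 5 these stood at 668, 174 and 271 FPKM, and in the other COPD libraries Rsad2 lay between 1.27 and 1.79 FPKM. The likeness to Ngp is set largely by that library.

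**Figure D3:**
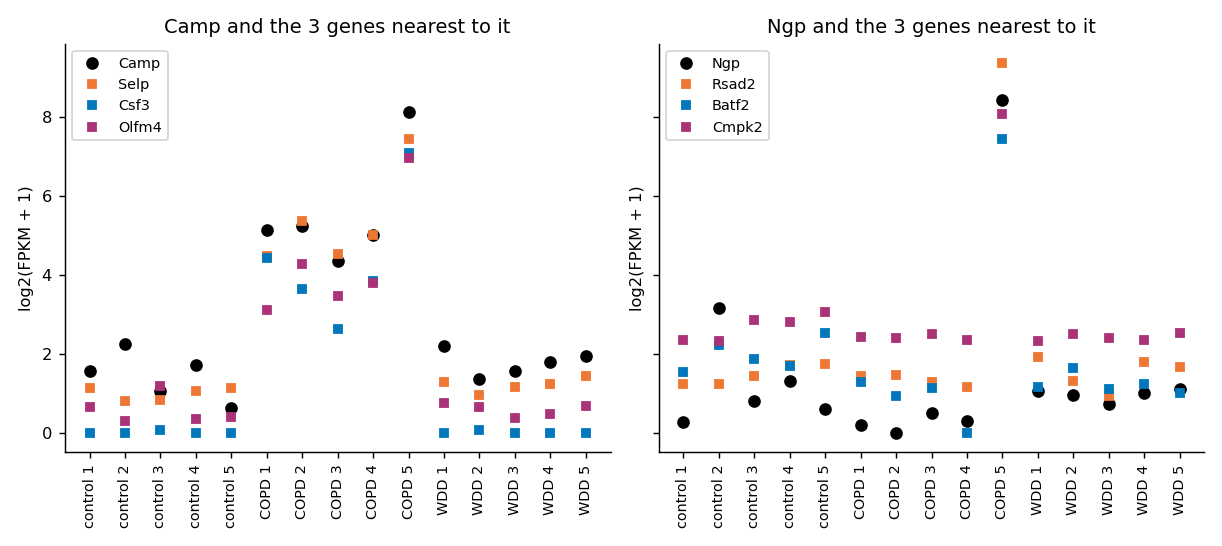
Camp (left) and Ngp (right) in black with the 3 genes of the most similar profile in colour, as log2(FPKM + 1) in each library. The genes near Camp are raised in all 5 COPD libraries and highest in COPD 5, and those near Ngp are raised in COPD 5 alone.

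Elane (ENSRNOG00000033685) encodes neutrophil elastase, which degrades bacteria and matrix proteins such as elastin. Its FPKM was 0.0810, 0.407, 0, 0 and 0.338 in control 1 to 5. It was 2.17, 4.78, 4.21, 2.32 and 2.78 in COPD 1 to 5. It was 0, 0, 0.385, 0.768 and 0.329 in WDD 1 to 5. The COPD libraries lay above all others, at a level that was still low. Elane was higher by 1.84 ± 0.20 in COPD against control lungs (adjusted p = 6.32e-07, limma), and the value for WDD against COPD was -1.70 ± 0.20 (adjusted p = 4.97e-06, limma). It passed the filter through the COPD libraries alone, so these p-values are no independent support. In a fit without the filter the adjusted p-values were 1.40e-06 and 1.08e-05 (limma). At levels this low the size depends on the pseudocount, and with 0.1 in place of 1 the COPD against control value was 3.93. WDD and control lungs differed by 0.14, with a 95% interval from -0.30 to 0.57. The nearest profiles were those of Msrb1 (a methionine sulfoxide reductase), Ankrd22 and Tarm1 (a receptor of myeloid cells), at differences of 0.28, 0.31 and 0.31.

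Prtn3 (ENSRNOG00000029814) encodes proteinase 3, a close relative of elastase, and lies next to Elane in the rat assembly GRCr8. Its FPKM was 0.646, 0.812, 0.254, 0.406 and 0.0843 in control 1 to 5. It was 0 in COPD 1, 2, 3 and 5 and 0.0924 in COPD 4. It was 0.0774, 0.153, 0.230, 0.306 and 0.737 in WDD 1 to 5. Unlike Elane it was thus lowest in COPD libraries, where it was listed at 0 in 4 of 5, although single libraries of the groups overlapped. The difference in log2(FPKM + 1) was -0.48 for COPD against control and 0.33 for WDD against COPD (exact permutation p = 0.0159 for each, two-sided, unadjusted). It was -0.14 for WDD against control (exact permutation p = 0.413). Neither of the first 2 passed when COPD 1 and COPD 5 were left out together (exact permutation p = 0.0714 for each). With all libraries, both lay close to the median of all genes in the fit without the filter, which was -0.49 and 0.33. They are therefore no result particular to Prtn3.

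Ltf (ENSRNOG00000031779) encodes lactoferrin, an iron-binding protein and a defining component of specific granules. It was above 0 in 3 libraries, at 0.0851 FPKM in control 1, 0.0296 in control 5 and 0.0272 in WDD 1, and it was listed at 0 in all 5 COPD libraries. The exact permutation test gave p = 0.444 for COPD against control, 1.00 for WDD against COPD and 0.444 for WDD against control. At these levels no difference was detectable.

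Other granule genes were taken from lists written with earlier results of these data known, and a difference between granule types was not tested. Of 9 further secondary and tertiary granule genes in the file, all 9 were called higher in COPD against control lungs. Their median was 3.75 against -0.81 for all genes, of which 8.23% were called higher. Lcn2, a siderophore-binding protein, rose by 3.76 ± 0.89 (adjusted p = 0.00112, limma), and the collagenase Mmp8 by 7.32 ± 0.32. The gelatinase Mmp9 rose by 4.69 ± 0.24 and the surface protein Cd177 by 1.28 ± 0.25 (adjusted p = 0.000184, limma). All 9 were called lower in WDD against COPD lungs (median -3.73), where 6.63% of all genes were. Their median in WDD against control lungs was 0.02 against -0.23 for all genes. Mmp9, Cd177 and Olfm4 among them passed the filter only with the COPD libraries, where they are high. Their calls in the first 2 comparisons are therefore no independent support. Of 8 further primary granule genes, 3 could be tested. Srgn, the proteoglycan serglycin that packs granule proteins, rose by 2.25 ± 0.29, whereas Ctsc, which activates the serine proteases, and Cd63 had -0.22 ± 0.23 and -0.25 ± 0.19 and were not called. Ms4a3 was listed at 0 in every library. Mpo, Ctsg and Bpi, named after their values were seen, reached at most 0.217, 0.156 and 0.104 FPKM in COPD lungs and 0.829, 0.391 and 0.192 FPKM in control lungs.

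Inhibitors and transcription factors were called in both directions. Among 4 tested inhibitors of the neutrophil serine proteases, Serpinb1a and Slpi rose by 4.71 ± 0.24 and 2.81 ± 0.34, and Serpina1 (alpha-1-antitrypsin) and Serpinb6a fell by 2.79 ± 0.32 and 1.06 ± 0.15. All 4 were called in COPD against control lungs, where 8.23% of all genes were called higher and 66.4% lower, with a median of -0.81. Each was called in the opposite direction in WDD against COPD lungs, where 57.1% of all genes were called higher and 6.63% lower. Among 8 transcription factors of granulocyte development, 3 were called higher and 2 lower in COPD lungs, beside 8.23% and 66.4% of all genes. Cebpe, known to drive secondary granule genes, had 0.70 ± 0.34 (adjusted p = 0.0699, limma), and Gfi1 had -0.30 ± 0.17, neither being called. Spi1, which encodes PU.1, rose by 1.78 ± 0.26, and Cebpa fell by 0.80 ± 0.17, about as far as the median of all genes.

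The members were then set against markers of the cell type. The measure was the log2(FPKM + 1) of each member minus the median of 8 mature neutrophil markers (Csf3r, Cxcr2, S100a8, S100a9, Fpr1, Fpr2, Trem1 and Il1r2) in the same library. Whether these markers follow the number of neutrophils was not tested. That median stood at 2.56 ± 0.21 in control, 7.31 ± 0.42 in COPD and 2.47 ± 0.69 in WDD lungs. All 7 testable markers were called higher in COPD against control lungs, where 8.23% of all genes were, with a median of 4.77 against -0.81. Fpr1 passed the filter only with the COPD libraries, so its call is no independent support. In WDD against control lungs 2 of these 7 were still called higher, where 6.35% of all genes were. These were S100a8 (1.56 ± 0.56, adjusted p = 0.0358, limma) and S100a9 (1.52 ± 0.48, adjusted p = 0.0193, limma). S100a8 stood at 20.1, 18.7, 22.1, 95.6 and 117 FPKM in WDD 1 to 5, against 5.67 to 24.9 FPKM in controls. S100a9 stood at 53.9, 58.6, 58.3, 241 and 290 FPKM there, against 21.7 to 46.7 FPKM in controls. WDD 4 and WDD 5, the closest pair of libraries, were thus far above the other WDD libraries in both genes. Exact permutation tests of this measure were run for 6 members in 3 comparisons, 18 in all, and are given unadjusted.

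Camp stood at -1.10 ± 0.64 in control and -1.73 ± 1.42 in COPD lungs (exact permutation p = 0.389). Its values in COPD 1 to 5 were -1.54, -2.33, -2.71, -2.71 and 0.66, and without COPD 5 the difference from controls was -1.22 (exact permutation p = 0.0317). Elane went from -2.36 ± 0.36 to -5.26 ± 0.51 on this measure (exact permutation p = 0.00794), but with a pseudocount of 0.1 the difference was -1.07 (exact permutation p = 0.143). Ngp stood at -1.33 ± 1.25 in control and -5.41 ± 3.60 in COPD lungs (exact permutation p = 0.0476), with COPD 5 at 0.98 and the other 4 between -7.57 and -6.48. That test did not hold when any single one of control 2 to 5 or COPD 1 to 4 was left out (exact permutation p from 0.0635 to 0.103), whereas without COPD 5 the difference was -5.68 (exact permutation p = 0.00794). Near the floor this measure is little more than minus the marker median, so a rise of the markers sets its outcome. Ngp was at most 0.427 FPKM in COPD 1 to 4. Elane lay near the floor in control and WDD lungs, at most 0.407 and 0.768 FPKM. Ltf, listed at 0 in all COPD libraries, gave -4.78, and Prtn3 gave -5.22 (exact permutation p = 0.00794 for each). Such differences are no result about these members. In WDD against COPD lungs the differences were 1.04 for Camp (exact permutation p = 0.198), 3.13 for Elane (exact permutation p = 0.00794) and 3.92 for Ngp (exact permutation p = 0.0476, not held without any single one of COPD 1 to 4 or of the WDD libraries). The value of Elane lay between 1.64 and 3.42 under the alternatives, and the floor limits it in the same way. Against the markers, Lyz2 went from 11.3 ± 0.26 to 4.48 ± 0.86 (exact permutation p = 0.00794). For WDD against control, the exact permutation p lay between 0.381 (Camp) and 0.857 (Prtn3) over the 6 members.

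**Figure D4:**
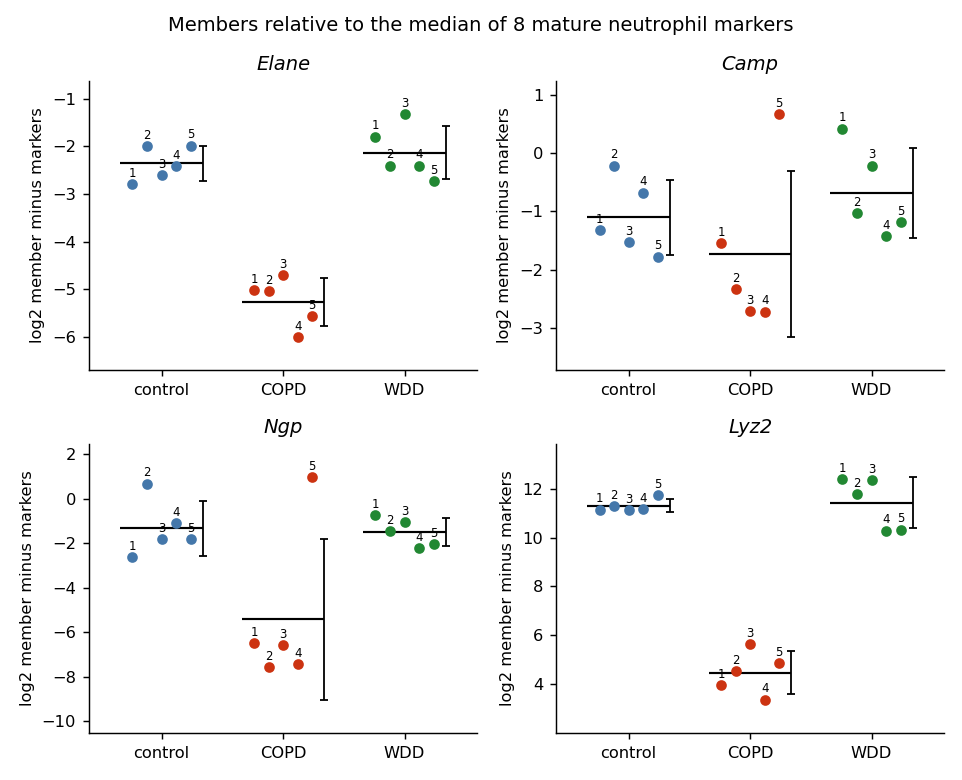
Log2(FPKM + 1) of 4 members minus the median of 8 mature neutrophil markers in the same library, with library numbers, group means and SD (n = 5). Camp overlaps between groups, Elane and Lyz2 lie lower in all COPD libraries, and Ngp lies low in COPD 1 to 4 and high in COPD 5. Vertical scales differ between panels.

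Lyz2 (ENSRNOG00000005825) encodes lysozyme, which cleaves bacterial cell walls. Its FPKM was 16969, 13936, 13608, 12261 and 18193 in control 1 to 5. It was 1607, 4399, 6778, 2202 and 5230.3 in COPD 1 to 5. It was 18528, 18631, 17975, 11639.6 and 11241 in WDD 1 to 5. All COPD libraries lay below all others, and WDD 4 and WDD 5 lay below the other WDD libraries. Lyz2 fell by 2.07 ± 0.35 in COPD against control lungs (adjusted p = 5.33e-05, limma), 1.25 further than the median of all genes. The fall was 1.13 after median-of-ratios scaling (adjusted p = 0.00727, limma) and 3.45 after quantile normalisation. Scaling to the FPKM sum without mitochondrial genes gave -1.86 (adjusted p = 1.50e-05, limma). COPD 1 and COPD 4, the lowest in Lyz2, had the highest mitochondrial shares, 65.0% and 47.8%. COPD 3, the highest COPD library in Lyz2, had 41.1%, and COPD 2 had the lowest share, 33.7%. The part of the mitochondrial share in the level of Lyz2 was not tested. Lyz2 rose by 2.10 ± 0.35 in WDD against COPD lungs (adjusted p = 9.67e-05, limma). WDD and control lungs differed by 0.04, with a 95% interval from -0.70 to 0.78.

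Lyz2 thus went the opposite way to Camp and Elane. Markers of other lysozyme-making cells were measured beside it. The summed level of 8 alveolar type 2 markers ranged from 16531 to 25266 FPKM in control, 3089.6 to 14383 in COPD and 19643 to 23023 in WDD lungs, and none of them was at 0. Of these 8, 6 were called lower in COPD lungs and none higher, where 66.4% of all genes were called lower, and their median was -1.82 against -0.81 for all genes. Sftpc and Sftpb, the surfactant proteins C and B, fell by 1.42 ± 0.36 and 2.38 ± 0.21. The summed level of 12 macrophage markers ranged from 311 to 437 FPKM in control, 111 to 299 in COPD and 327 to 409 in WDD lungs, and 7 of 11 testable ones were called lower and 1 higher, shares near those of all genes (66.4% and 8.23%), with a median of -1.31. The mannose receptor Mrc1 fell by 2.32 ± 0.31, and Cd68 had -0.09 ± 0.28 and was not called. Marco, a scavenger receptor named after its values were seen, was listed at 0 in all control libraries and in COPD 5, and reached 7.04 FPKM in COPD 3. The part of these cells in the level of Lyz2 was not tested. Profiles nearest to Lyz2 were those of Tspan13 (a tetraspanin), RT1-Da (an MHC class II chain) and Sftpd (surfactant protein D), at differences of 0.28, 0.28 and 0.29. The adjacent gene Lyc2 is a copy of the lysozyme gene, so reads may be split between them. It stood at 19.4 ± 30.7 FPKM in control, 22.2 ± 9.62 in COPD and 31.3 ± 33.5 in WDD lungs, at most 0.949% of Lyz2 in any library.

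**Figure D5:**
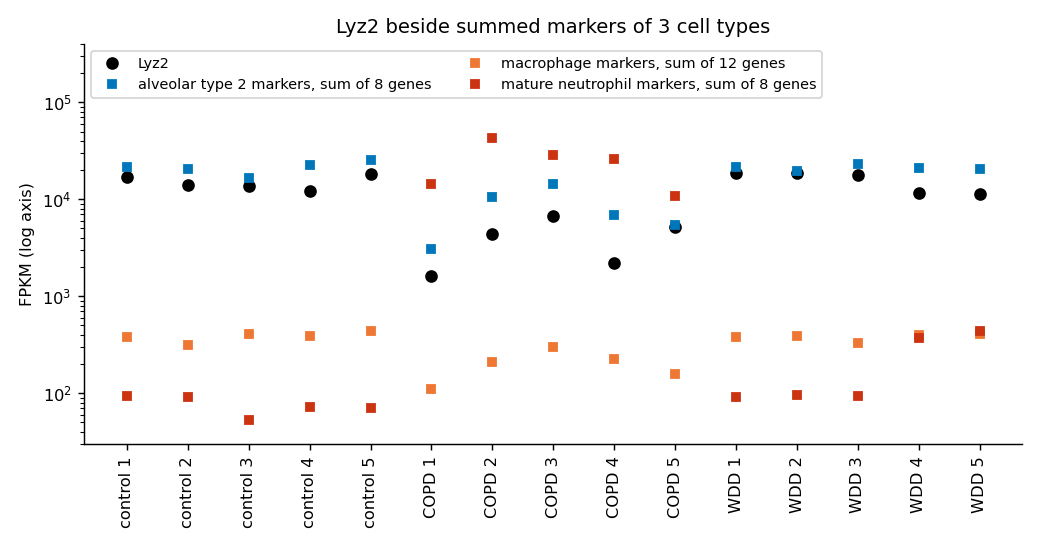
Lyz2 (black) beside the summed FPKM of 8 alveolar type 2, 12 macrophage and 8 mature neutrophil markers in each library, on a log axis. In the COPD libraries Lyz2 and the sums of the first 2 lists lie lower, while the sum of neutrophil markers lies between 10861 and 42639 FPKM against 52.7 to 92.4 in controls.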

How the data were processed

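Per the labels' protocols, RNA was extracted with TRIzol and 1 ug was used for libraries made with the NEBNext Ultra RNA kit. Per the submitters' processing notes, cutadapt, HISAT2 and StringTie were used with build Rnor_6.0. The sources used here state no versions, strand use or annotation release. The authors' deposited values are FPKM. Without read totals the absolute depth is unknown, and intervals for counting error were left out. Each column was tied to its sample through the labels.

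Values were used as deposited. limma 3.58.1 in R 4.3.3 was fitted to log2(FPKM + 1) of 13172 genes (those at 1 FPKM or more in 5 or more libraries) over all 15 libraries, with eBayes and trend, two-sided, and calls at an adjusted p under 0.05. The procedure was tested on simulated data. Exact permutation tests and figures used Python 3.11.15, numpy 2.4.6, pandas 2.3.3 and matplotlib 3.10.9. Relative depth was the most frequent ratio of values under 0.3 FPKM to those of control 2.

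Members, gene lists, motifs, tests and alternatives were chosen with earlier results of these data known. Named genes are the members, the first up to 4 tested genes of each described list in its written order, genes listed at 0, and the 3 nearest profiles of each tested member. Marker lists of monocytes, alveolar type 1 cells, airway secretory cells, eosinophils, mast cells, erythroid and proliferating cells were also measured. The housekeeping list was written by hand later. Alternatives covered the pseudocount, the filter, scaling, the variance model, library weights, the groups fitted, the replicate block and left-out libraries. Replicate numbers did not pair the libraries: deviations correlated above 0.1 in 1 of 15 pairs with the same number. RefSeq positions belong to GRCr8, not to the files' build, and are given for the printed sequences only.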

Additional observations from a re-analysis of the deposited data

Results flagged for a closer look

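Of 17 sets of 5 libraries, each a member in 1 group, 5 held a library whose gap to the nearest other was over 0.71 of the set's range. Chance alone gives about 1 in 20 (5%) of such sets, and values at 0 make the measure coarse. Camp stood at 279.98 FPKM and Ngp at 349 FPKM in COPD 5, both far above the other COPD libraries. Ngp stood at 7.95 FPKM in control 2, above the other controls. Prtn3 at 0.0924 FPKM in COPD 4 and Ltf at 0.0272 FPKM in WDD 1 were the only values above 0 in their groups.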

How the results depend on the processing

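The comparisons were repeated under 29 alternatives, with the genes tested kept except where the filter changed. Of 345 repeated values of tested members, 330 kept direction and call. Calls of Camp and Lyz2 in the first 2 comparisons held under all 29 alternatives. Those of Elane held where it was tested, but all filters that kept it did so through the COPD libraries, except the fit without a filter. With a mean FPKM of at least 5, Elane was not tested, which left 1 member higher in COPD against control and 1 lower in WDD against COPD. Without a filter 2 members (Lyz2 and Prtn3) were lower in COPD against control, Prtn3 by about as much as the median of all genes. Leaving out single libraries gave 1 to 2 there, the 2 without COPD 5 (Lyz2 and Ngp). Quantile normalisation made Lyz2 lower in WDD against control (1 member, -1.38, adjusted p = 0.00124, limma), and Lyz2 ranked 4 to 9 by level in WDD and 1 to 3 in control libraries. All genes called numbered 5379 against 8399 under quantile normalisation (WDD against COPD), and 8209 with library weights and 3035 without WDD 4 and WDD 5 against 4915 (WDD against control). The split into higher and lower in COPD against control was 1084 and 8749 as deposited, 3977 and 4256 after median-of-ratios scaling and 3737 and 3893 under quantile normalisation. There the median of all genes was -0.05 and -0.02. For WDD against COPD the splits were 7526 and 873, 3073 and 2819, and 2910 and 2469, and 4544 and 1511 after scaling to the sum without mitochondrial genes, and for WDD against control 836 and 4079, 2100 and 2224, and 2288 and 2408.

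Signs turned for values not called in the comparison as reported. Ngp in COPD against control was -0.0904 with a pseudocount of 0.1, -0.55 with library weights, -0.96 without COPD 1 and 5, and -0.98 to 1.14 without single libraries. In WDD against COPD it was 0.43, 0.70 without COPD 1 and 5, and -1.39 to 0.72, and in WDD against control -0.50 to 0.22. In WDD against control, Elane was -0.0485 without WDD 4 and 5, and Lyz2 was -0.12 after scaling to the sum without mitochondrial genes and -0.0378 to 0.14 without single libraries.

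Relative to neutrophil markers, Elane (COPD against control) was -1.07 with a pseudocount of 0.1. Camp was -1.48 and 1.90 in the first 2 comparisons without COPD 1 and 5, both passing, and -1.22 to -0.38 and 0.77 to 1.64 without single libraries. Ngp was -5.09 with a pseudocount of 0.1, 4.34 in WDD against COPD without WDD 4 and 5, and -5.68 to -3.55 and 3.38 to 5.51 without single libraries. In WDD against control Ngp was 0.0104 with a pseudocount of 0.1, 0.25 without WDD 4 and 5, and -0.50 to 0.33. Prtn3 there was 0.0122 with 6 markers (an alternative chosen after seeing the data), 0.26 without WDD 4 and 5, and -0.21 to 0.13. Lyz2 there was 0.87 without WDD 4 and 5, passing, and -0.12 to 0.41. Without COPD 1 and 5 the differences of Prtn3 itself were -0.46 and 0.32, not passing. Apart from what the changed filter, sample or pseudocount itself sets, the cause was not tested. The replicate number as a block left 2 members higher and 1 lower in COPD against control, and changed no call of a member. Read totals were not used, so members under 1 FPKM rest on few fragments.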

Other observations

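Alpha-defensins are small antimicrobial peptides, only some of them held in primary granules, with near-identical copies that counting may split. The list was not restricted to those of neutrophils, and 7 of its 10 genes in the file were listed at 0 in every library. RatNP-3b, the 1 that could be tested, rose by 2.02 ± 0.55 in COPD against control lungs (adjusted p = 0.00315, limma) and fell by 2.32 ± 0.55 in WDD against COPD lungs. Its FPKM was 1.63, 24.3, 7.28, 3.33 and 0.450 in COPD 1 to 5, so the COPD library highest in it was COPD 2, and COPD 5, highest in Camp and Ngp, was the lowest. In control 2 it stood at 1.83 FPKM, above COPD 1 and COPD 5, so the groups overlapped. RatNP-3b passed the filter only through COPD 1 to 4 and control 2, so its p-values are no independent support.

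Control 2 was the highest control library for Camp, Ngp, Prtn3, Elane, Mpo, Ctsg and the defensins Np4 (3.59 FPKM) and RatNP-3b, but not for Ltf or Lyz2. The haemoglobin gene Hba-a1 stood at 4260.1 FPKM in that library and at 209.9 to 1427 FPKM in the other controls. It stood at 6475 FPKM in COPD 5 and at 492 to 1517 FPKM in the other COPD libraries. In WDD libraries it lay between 2936 and 7810 FPKM, while Ngp there was at most 1.16 FPKM and Camp at most 3.63 FPKM. The part of blood in these levels was not tested. Myb, a transcription factor of blood cell precursors, fell by 2.39 ± 0.18 in COPD against control lungs and had -0.94 ± 0.18 in WDD against control lungs (adjusted p = 0.000757, limma). Hba-a1, Hbb and Myb were named after their values were seen.

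Eosinophil markers reached at most 2.61 FPKM as a sum of 5 genes in any library, and the 6 proliferation genes had a median log2 fold change of -0.16 in COPD against control lungs, with 1 called lower and none higher. Of 5 monocyte markers 2 were called higher and 1 lower, all 6 alveolar type 1 markers were called lower, and of 5 tested airway secretory markers 1 was called higher and 2 lower, where 8.23% of all genes were called higher and 66.4% lower. Of those called higher, Vcan (monocyte list) and Bpifa1 (airway list) passed the filter only with the COPD libraries. The 4 tested erythroid markers had a median of 0.37 in that comparison, 1.57 in WDD against COPD and 2.01 in WDD against control. In each of the last 2, 2 of the 4 were called higher, Hba-a1 (1.87 and 2.58) and Hbb (2.13 and 2.72), both haemoglobin genes. In COPD against control, the 1 tested mast cell and basophil marker, Kit, was called lower, as 66.4% of all genes were. Kit stood at 47.8 ± 6.01 FPKM in control lungs, while the other genes of that list had group means under 1 FPKM. The cells that Kit came from were not tested.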
